A study of Homo sapiens with 15 samples.

Results

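Of the mitochondrial carrier family SLC25, the annotation used here named 2 genes, SLC25A15 and SLC25A2. Members were all protein-coding genes of the platform annotation whose symbol begins with SLC25A, each read from its feature of highest mean over the 15 arrays. The 2 members stood among 14812 named genes, of which 11910 were protein-coding, and each had 1 feature. A RefSeq gene table lists 48 protein-coding SLC25A symbols, and 28794 of the 44629 features were unnamed in the annotation used. The other 46 were therefore not analysed here, whether or not the arrays carry probes for them, and the values below describe these 2 members and not the family.

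The cells were MV4-11, an established acute myeloid leukemia line known for its KMT2A-AFF1 fusion and its internal FLT3 duplication. The 5 groups were OTX015 at 300 nM, DW71177 at 300 nM, DW71374 at 300 nM, RVX208 at 5 uM and the vehicle DMSO, each for 24 h and each with 3 arrays. The series describes the compounds as BET inhibitors, which block the bromodomains by which BET proteins read acetylated lysines. OTX015 (birabresib) binds both bromodomains of these proteins, RVX208 (apabetalone) prefers the second, and DW71177 and DW71374 are known here by code name only. The labels speak of triplicate wells of this single line and do not say whether they were separate cultures, so the p-values reflect only how far replicate arrays differed, and that spread may be technical.

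Proteins of the SLC25 family sit in the inner mitochondrial membrane and exchange small solutes between the cytosol and the matrix. They are made in the cytosol, guided through the outer membrane by the TOM complex, carried across the intermembrane space by small TIM chaperones and inserted by the TIM22 complex. SLC25A15 (ORNT1) exchanges cytosolic ornithine for matrix citrulline, a step of the urea cycle, and its loss causes the hyperornithinemia-hyperammonemia-homocitrullinuria syndrome. SLC25A2 (ORNT2) is a closely related, intronless ornithine and basic amino acid carrier. Both members therefore belong to the same branch of the family, and carriers of adenine nucleotides, phosphate, citrate, iron or carnitine were not analysed here.

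The region before the start of SLC25A15 is shown because SLC25A15 was the member that passed a test. It covers 250 bases upstream of the start in RefSeq, GRCh38.p14, chr13:40789361-40789610, plus strand, 5′ to 3′, with CG dinucleotides in capitals.
SLC25A15: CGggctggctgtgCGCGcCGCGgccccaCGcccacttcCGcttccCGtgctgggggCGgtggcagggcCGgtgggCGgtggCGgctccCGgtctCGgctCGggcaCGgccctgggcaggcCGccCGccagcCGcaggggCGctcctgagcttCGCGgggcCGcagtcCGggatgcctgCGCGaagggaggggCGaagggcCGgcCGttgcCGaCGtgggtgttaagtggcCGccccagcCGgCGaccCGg
The window held 35 CG dinucleotides and 79.6% G or C, against medians of 11 and 58.0% over the 35116 windows of the table. The E-box CACGTG, searched on both strands, had 0 matches in it and was present in 6.34% of all windows. The letters CACGCG, ATTGCATCA and TGACGTCA, searched in the same way, also had 0 matches, and 9.72%, 0.216% and 1.65% of all windows held them. These counts describe the letters of this window and no binding was measured.

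SLC25A15 fell with OTX015. Its deposited log2 signal was 5.44, 5.18 and 5.56 in the OTX015 arrays, against 5.97, 5.82 and 5.96 in the DMSO arrays. All 3 OTX015 arrays lay below all 3 DMSO arrays. The group means were 5.39 ± 0.194 with OTX015 and 5.92 ± 0.081 with DMSO (SD, n = 3 each), a 1.44-fold difference (log2 -0.52 ± 0.10 SE, 95% interval -0.74 to -0.31, limma adjusted p = 0.0012). In this comparison limma called 14.5% of all genes lower and 11.2% higher, and 800 of the 14812 genes (5.4%) had a larger fall than SLC25A15. Groups that did not overlap, with the OTX015 arrays below, were found for 19.5% of all genes. SLC25A15 was thus 1 of 2144 genes called lower with this compound.

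SLC25A2 did not pass the test with OTX015. It read 4.80, 4.59 and 4.98 in the OTX015 arrays, against 4.53, 4.61 and 4.65 in the DMSO arrays. OTX015 replicate 2 lay within the DMSO range and the other 2 lay above it. The difference was 0.19 ± 0.12 on the log2 scale (95% interval -0.07 to 0.46, limma adjusted p = 0.32). The feature had a modest signal, with every SLC25A2 group mean under 5. These means, 4.52 to 4.80, lay above the array medians of 3.72 to 3.79 and below the upper quartiles of 5.25 to 5.28. No background level was given, so a true fold could be larger than the one measured. These are whole-culture measurements, so less RNA per cell and fewer cells with the RNA cannot be told apart.

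**Figure D1:**
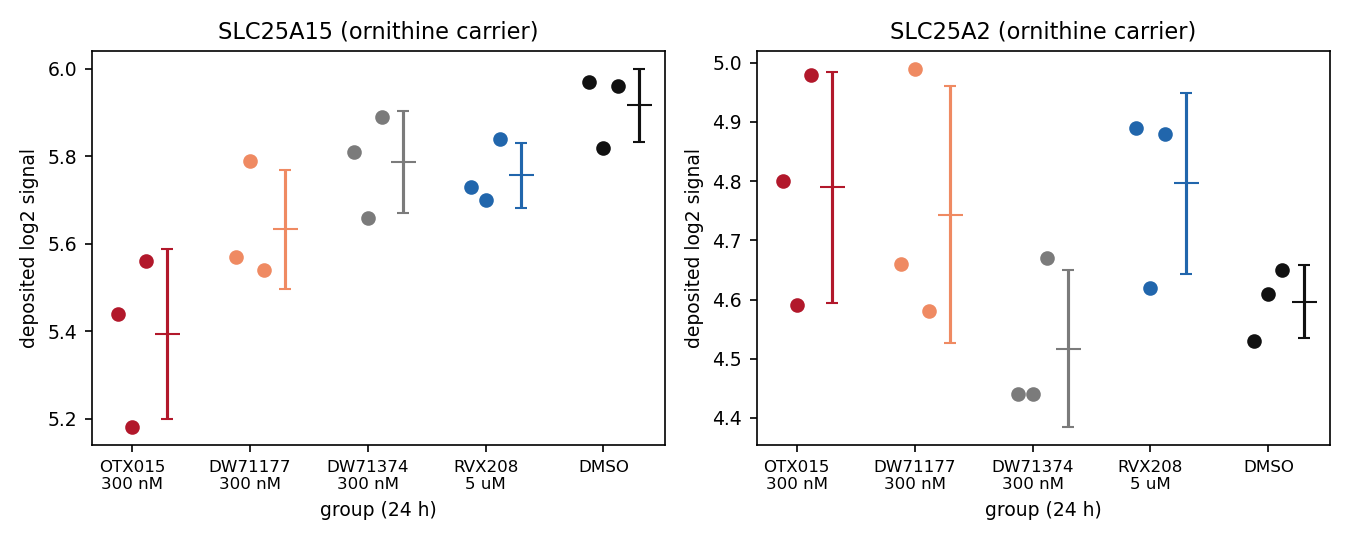
Deposited log2 signal (y axis) of SLC25A15 (left) and SLC25A2 (right) in the 5 groups (x axis), with 1 point per array and the mean ± SD of 3 arrays beside them; the axes do not start at 0. SLC25A15 read 5.18 to 5.56 with OTX015 and 5.82 to 5.97 with DMSO, while the SLC25A2 ranges of all compounds overlapped that of DMSO.

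With DW71177, SLC25A15 read 5.57, 5.79 and 5.54, against 5.97, 5.82 and 5.96 with DMSO. The groups did not overlap, although DW71177 replicate 2, at 5.79, came close to DMSO replicate 2, at 5.82. The difference of -0.29 ± 0.10 (95% interval -0.50 to -0.07) missed the threshold (limma adjusted p = 0.062, unadjusted p = 0.013, n = 3 each). The call turned on settings, and 9 of 12 alternatives left SLC25A15 uncalled. Without DW71177 replicate 2 the difference was -0.365 with a limma adjusted p of 0.029, and among genes with a mean of at least 5 the adjusted p was 0.021. Over all omissions of single arrays the difference was -0.365 to -0.239, with a limma adjusted p of 0.029 to 0.19. In this comparison 9.88% of all genes were called lower and 16.2% had DW71177 arrays wholly below the DMSO arrays. SLC25A2 read 4.66, 4.99 and 4.58 with DW71177, which overlapped its DMSO range of 4.53 to 4.65. Its difference was 0.15 ± 0.12 (95% interval -0.11 to 0.42, limma adjusted p = 0.49).

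With DW71374, SLC25A15 read 5.81, 5.66 and 5.89, and the highest of these lay above the lowest DMSO array at 5.82. The difference from DMSO was -0.13 ± 0.10 (95% interval -0.35 to 0.08, limma adjusted p = 0.99, unadjusted p = 0.21). SLC25A2 read 4.44, 4.44 and 4.67 with DW71374, and its difference from DMSO was -0.08 ± 0.12 (95% interval -0.34 to 0.19, limma adjusted p = 0.99, unadjusted p = 0.53). Limma called 0% of all genes in this comparison, with 686 of 14812 at an unadjusted p under 0.05. The SLC25A15 interval reached down to -0.35, so a fall as large as the -0.29 measured with DW71177 was not excluded by these arrays.

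With RVX208, used at 5 uM and so at another dose than the other compounds, SLC25A15 read 5.73, 5.70 and 5.84. The highest RVX208 array overlapped the lowest DMSO array, and the difference was -0.16 ± 0.10 (95% interval -0.38 to 0.05, limma adjusted p = 0.42). SLC25A2 read 4.89, 4.62 and 4.88 with RVX208, with replicates 1 and 3 above all DMSO arrays. Its difference of 0.20 ± 0.12 (95% interval -0.06 to 0.47, limma adjusted p = 0.41) was not called. Limma called 6.52% of all genes with RVX208.

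The order of SLC25A15 group means was OTX015 at 5.39, DW71177 at 5.63, RVX208 at 5.76, DW71374 at 5.79 and DMSO at 5.92. Each neighbouring pair in this order overlapped in its arrays, the closest case being OTX015 and DW71177 at 5.18 to 5.56 and 5.54 to 5.79. The order of SLC25A2 means was DW71374 at 4.52, DMSO at 4.59, DW71177 at 4.75, OTX015 at 4.79 and RVX208 at 4.80, and all neighbours overlapped.

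The 3 compounds used at 300 nM were compared directly in 3 pairs. SLC25A15 was higher with DW71374 than with OTX015, at 5.66 to 5.89 with DW71374 and 5.18 to 5.56 with OTX015. The arrays of these groups did not overlap, and the difference was 0.39 ± 0.10 (95% interval 0.18 to 0.61, n = 3 each, limma adjusted p = 0.0096). In that pair 14% of all genes were called higher with DW71374, and 19.2% had DW71374 arrays wholly above those of OTX015. Between DW71177 and OTX015 the SLC25A15 difference was 0.24 ± 0.10 (95% interval 0.02 to 0.45). It missed the threshold (limma adjusted p = 0.30, unadjusted p = 0.033), and the groups overlapped by the DW71177 array at 5.54 and the OTX015 array at 5.56. In this pair 1.26% of all genes were called. Between DW71177 and DW71374 the SLC25A15 difference was -0.15 ± 0.10 (95% interval -0.37 to 0.06, limma adjusted p = 0.37), in a comparison that called 19.5% of all genes.

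SLC25A2 passed the test in none of the 3 pairs. The largest of its differences, between DW71374 and OTX015, was -0.27 ± 0.12 (95% interval -0.54 to -0.01, limma adjusted p = 0.14, unadjusted p = 0.045). Between DW71177 and DW71374 it was 0.23 ± 0.12 (95% interval -0.04 to 0.50, limma adjusted p = 0.25), and between DW71177 and OTX015 it was -0.04 ± 0.12 (95% interval -0.31 to 0.22, limma adjusted p = 0.93).

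**Figure D2:**
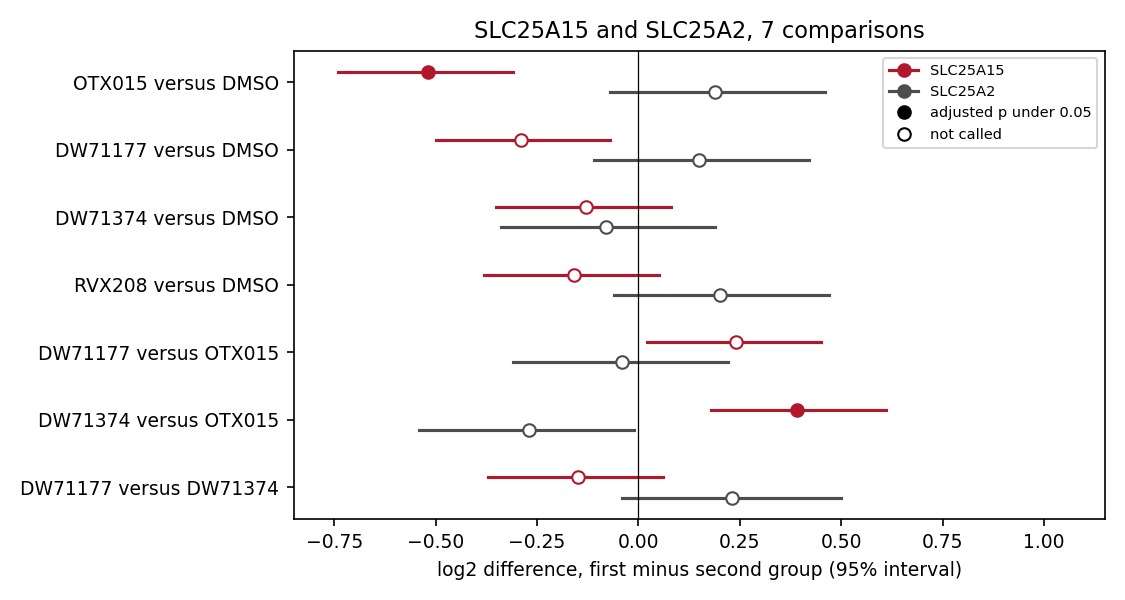
Log2 difference of the first minus the second group (x axis) for SLC25A15 and SLC25A2 in 7 comparisons (y axis), with 95% intervals from limma; filled points had an adjusted p under 0.05. SLC25A15 was called in 2 comparisons, at -0.52 for OTX015 versus DMSO and 0.39 for DW71374 versus OTX015, and SLC25A2 in 0.

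The members were also compared with each other within each array, a comparison that was not among the planned tests. The SLC25A15 signal minus the SLC25A2 signal has no meaning as a level, since different probes are involved. Its change between groups describes unequal change of the probe signals and is not moved by a constant added to an array. Unequal change of the RNAs does not follow from it, since the SLC25A2 feature had a modest signal and probe specificity was not tested. This log2 difference was 0.64, 0.60 and 0.58 in the OTX015 arrays, against 1.44, 1.22 and 1.31 in the DMSO arrays. It was 0.91, 0.79 and 0.95 with DW71177, 0.83, 1.08 and 0.96 with RVX208, and 1.38, 1.22 and 1.22 with DW71374. All arrays of OTX015, DW71177 and RVX208 lay below all DMSO arrays, whereas those of DW71374 overlapped them. Over all pairs of genes, such a difference did not overlap DMSO in either direction for 39.8% of pairs with OTX015, 34.4% with DW71177, 25.8% with RVX208 and 11.1% with DW71374, so the lack of overlap is no rare feature of this pair. The mean change from DMSO was -0.72 with OTX015, -0.44 with DW71177 and -0.36 with RVX208 (exact two-sided permutation p = 0.1 each, the smallest that 3 against 3 arrays allow, and 0.133 after Benjamini-Hochberg adjustment over 4 compounds). With DW71374 it was -0.05 (exact permutation p = 0.7). The SD of this difference over 3 arrays was below that of SLC25A15 alone with OTX015 (0.033 against 0.194), DW71177 (0.082 against 0.137) and DW71374 (0.09 against 0.113). It was above that of SLC25A15 alone with RVX208 (0.124 against 0.077) and with DMSO (0.113 against 0.081).

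**Figure D3:**
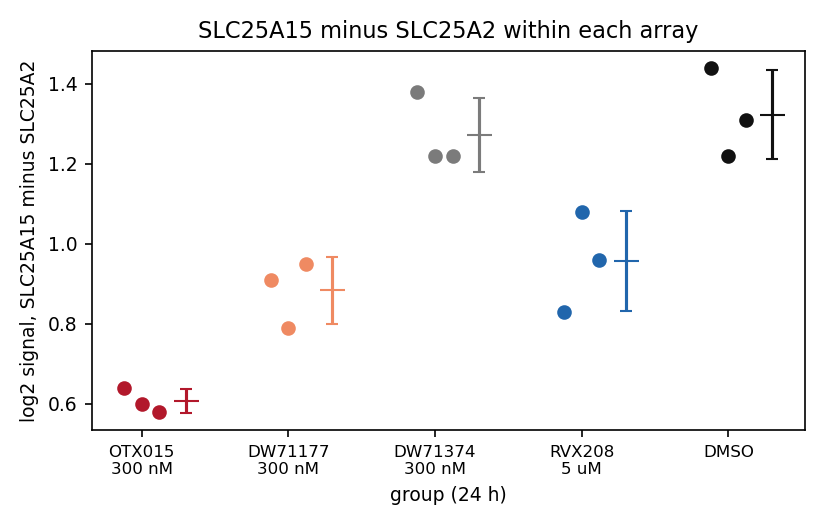
SLC25A15 minus SLC25A2 log2 signal within each array (y axis) by group (x axis), with 1 point per array and the mean ± SD of 3 arrays. The OTX015 arrays sat at 0.58 to 0.64 and the DMSO arrays at 1.22 to 1.44, with DW71177 and RVX208 between them.

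Further genes were read from a list of 24 drawn up around ornithine, the urea cycle, proline and polyamines. Genes of creatine and nitric oxide synthesis, such as GAMT and NOS3, were also in it. Of the 24, 18 were measured, meaning that the annotation used named a feature for them. With OTX015, 6 of the 18 fell and 0 rose (list median -0.17, against 0 over all genes), where 14.5% of all genes were called lower and 11.2% higher. The 6 were ASS1, SRM, PYCR3, SMS, GAMT and NOS3. With DW71177, ASS1, SRM, SMS, PYCR1 and AMD1 fell and 0 rose, where 9.88% of all genes were called lower and 9.95% higher. With RVX208, ASS1 and SRM fell and 0 rose, where 3.11% of all genes were called lower and 3.41% higher. Without DW71177 replicate 1, AZIN2, a regulator of polyamine synthesis, was called higher with DW71177 than with DMSO (0.31, limma adjusted p = 0.042). With all arrays it was called higher with DW71177 than with DW71374 (0.33 ± 0.091, limma adjusted p = 0.019). With DW71374 against DMSO, limma called 0 of the 18, where it called 0% of all genes, so this count says nothing particular about the list. Between DW71177 and DW71374, 6 were called lower and 1 higher with DW71177, where 9.51% and 9.98% of all genes were. Between DW71374 and OTX015, 7 were called higher and 1 lower with DW71374, where 14% and 11.1% of all genes were. Between DW71177 and OTX015, 0 were called, where 1.26% of all genes were. ASS1, which joins citrulline and aspartate downstream of the ornithine-citrulline exchange, had the largest falls. It read 5.60, 5.92 and 5.71 with OTX015, 5.79, 5.68 and 5.48 with DW71177 and 6.07, 6.10 and 6.11 with RVX208, against 7.11, 6.89 and 6.95 with DMSO. Its differences were -1.24 ± 0.10, -1.34 ± 0.10 and -0.89 ± 0.10 in that order (limma adjusted p = 8.2e-07, 1.1e-06 and 0.00021). The spermidine synthase gene SRM fell by 0.86, 0.68 and 0.31 on the log2 scale with OTX015, DW71177 and RVX208 (limma adjusted p = 1.5e-07, 2.4e-06 and 0.0059).

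The enzymes that use ornithine directly were looked at after their values had been seen. OAT, the matrix ornithine aminotransferase, differed from DMSO by -0.12 ± 0.089 with OTX015 and -0.24 ± 0.089 with DW71177 (limma adjusted p = 0.42 and 0.078). ODC1, the cytosolic ornithine decarboxylase, differed by 0.07 ± 0.058 and -0.02 ± 0.058 (limma adjusted p = 0.50 and 0.85). The ornithine transcarbamylase gene OTC, which makes citrulline in the matrix, had group means of 2.44 to 2.63, below the array medians. Its difference with OTX015 was 0.13 ± 0.12 (limma adjusted p = 0.55). Between DW71177 and DW71374, OAT was called lower with DW71177 (-0.31 ± 0.089, limma adjusted p = 0.026), where 9.51% of all genes were called lower.

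Many genes of the machinery that imports carriers fell with OTX015 and DW71177. Whether these falls concern carriers in particular or mitochondrial import in general was not tested. Of 16 listed genes 15 were measured, and 11 fell and 0 rose with OTX015 (list median -0.37, against 0 over all genes), where 14.5% of all genes were called lower and 11.2% higher. With DW71177, 10 fell and 0 rose (median -0.27, against -0.01 over all genes), where 9.88% of all genes were called lower and 9.95% higher. With RVX208, TIMM13, TOMM5 and TOMM40 fell and 0 rose (median -0.11, against -0.01 over all genes), where 3.11% of all genes were called lower and 3.41% higher. The small TIM chaperone gene TIMM13 read 8.23, 8.47 and 8.48 with OTX015, against 9.34, 9.41 and 9.45 with DMSO (log2 -1.01 ± 0.09, limma adjusted p = 1.5e-06). TOMM40, the outer membrane channel, differed by -0.85 ± 0.053 with OTX015 and -0.64 ± 0.053 with DW71177 (limma adjusted p = 6.8e-08 and 1.9e-06). The RVX208 count was 1 in place of 3 when DMSO replicate 2, DMSO replicate 3 or RVX208 replicate 3 was left out.

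**Figure D4:**
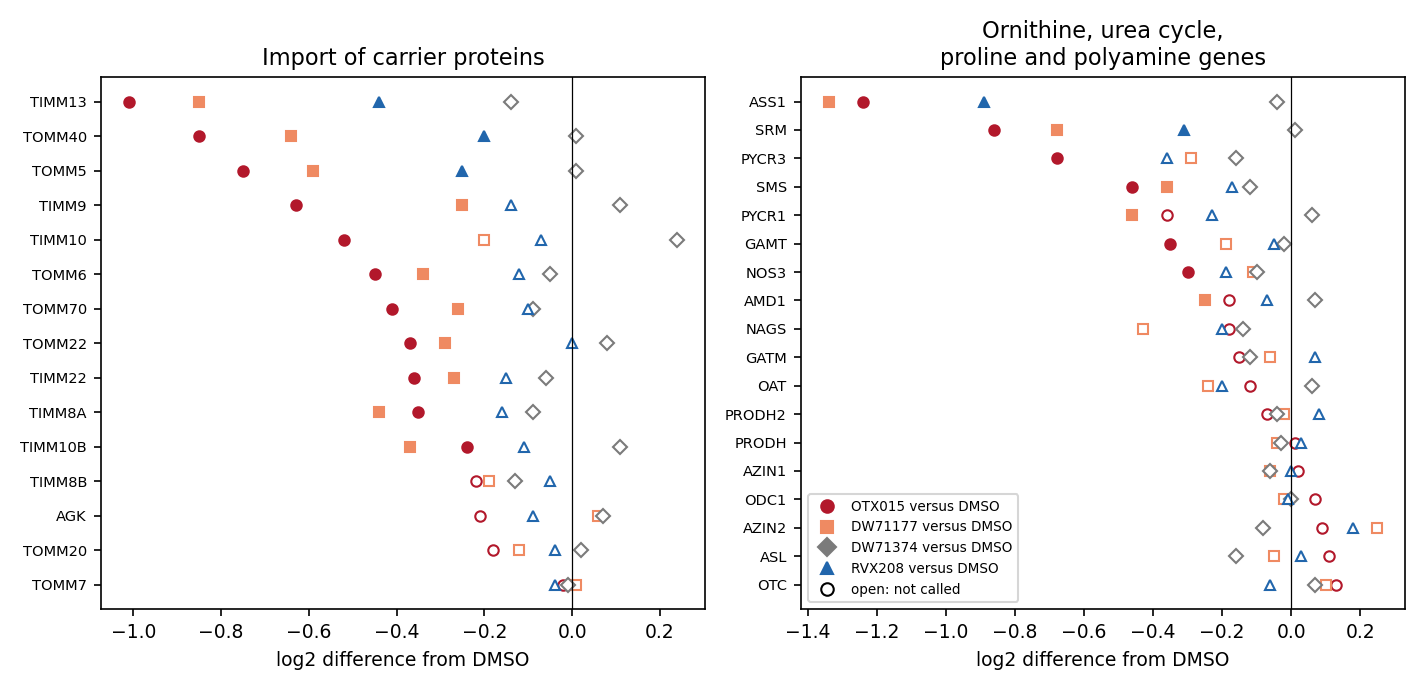
Log2 difference from DMSO (x axis) for the 4 compounds, a row per gene. On the left are 15 genes of the carrier import list, on the right 18 of the ornithine, urea cycle, proline and polyamine list. Filled symbols had a limma adjusted p under 0.05. TIMM13 and ASS1 head the panels at -1.01 and -1.24 with OTX015.

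RefSeq gives an SLC25A synonym to 5 genes with other symbols, of which MTCH1 (SLC25A49) and MTCH2 (SLC25A50) were measured. They are outer membrane relatives of the carriers and were not counted as members. MTCH1 differed from DMSO by 0.03 ± 0.051 with OTX015 (95% interval -0.08 to 0.15, limma adjusted p = 0.72) and by -0.02 ± 0.051 with DW71177. MTCH2 read 9.38, 9.26 and 9.34 with OTX015, against 9.47, 9.51 and 9.51 with DMSO. The MTCH2 groups did not overlap, as for 19.5% of all genes with the OTX015 arrays below. The difference of -0.17 ± 0.06 just missed the threshold (limma adjusted p = 0.051). MTCH2 was called higher with DW71374 than with OTX015, at 0.19 ± 0.06 (limma adjusted p = 0.033). In that pair 14% of all genes were called higher with DW71374.

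Cell type markers were also read, of which 7 of 10 myeloid, 2 of 7 erythroid, 3 of 5 epithelial and stromal and 0 of 5 lymphoid genes were measured. In DMSO the myeloid markers averaged 4.59 (MPO) to 11.11 (LYZ), with FLT3 at 9.80, and the epithelial marker EPCAM averaged 2.64, below the array medians. KRT8 and KRT18 averaged 5.29 and 7.74, and the erythroid genes KLF1 and EPOR 4.64 and 5.87. KRT18 thus lay above all measured myeloid markers except FLT3 and LYZ, so these markers do not settle the line's identity. RefSeq lists 5 SLC25A15 pseudogenes, and how far the probes of SLC25A15 tell them and SLC25A2 apart was not tested.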

How the data were processed

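The deposited table held 44629 features in 15 arrays. Its deposited values are taken as log2 signals, a scale inferred from their range. Lower quartiles of 2.58 to 2.62, medians of 3.72 to 3.79 and upper quartiles of 5.25 to 5.28 over the arrays are what a normalization between arrays would give, but no source used here states one. How the background was corrected, and the software and build, is not given in the sources used here. Such a normalization would remove a change shared by all genes.

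Features were named through the platform annotation (15835 naming 1 gene, 0 several, 28794 unnamed there), and all 15835 matched RefSeq gene IDs. For 651 genes with several features the one of highest mean was used, which left 14812 genes, with no level filter.

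Groups were compared with limma 3.58.1 (lmFit, then eBayes with its defaults, under R 4.3.3) in 1 model of the 5 group means, which left 10 residual degrees of freedom. Two-sided p-values were adjusted over all genes by Benjamini-Hochberg, and an adjusted p under 0.05 was a call. The number of arrays limits the precision. The fit was tested on simulated data with independent errors and changes larger than those of the members. That test does not show how well changes of the members' size are found. The members and lists were chosen with earlier results of these data known, and the ornithine list was added once the annotation had been seen. Named were all members, the largest called changes of each list, and genes said to be chosen later. The alternatives were another feature rule, quantile normalization, a level filter, other variance models, smaller fits, a joint adjustment, all features, a replicate block and the omission of each array. The planned tests of other SLC25A genes could not be made.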

Additional observations from a re-analysis of the deposited data

How the results depend on the processing

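The SLC25A15 call with OTX015 held in all 12 alternatives that gave it a value (log2 -0.609 to -0.419, limma adjusted p = 0.00024 to 0.013), and so did the count of 1 called member in OTX015 versus DMSO and in DW71374 versus OTX015. With DW71177 versus DMSO the count of called members was 0, but 1 among genes with a mean of at least 5 (SLC25A15 at -0.287, limma adjusted p = 0.021) and 1 with trended, robust variances (-0.287, limma adjusted p = 0.042). Leaving out single arrays gave a count of 0 to 1 and SLC25A15 differences of -0.365 to -0.239 there. SLC25A2 was not called in any comparison with DMSO under its 11 alternatives. The level filter tests fewer genes and drops SLC25A2, which is why it has fewer; the cause of the other changes was not tested. With the replicate number as a block, the SLC25A15 difference with OTX015 was -0.525 (limma adjusted p = 0.0016) and the block changed no call of a member. Same-numbered arrays did not deviate together (30 correlations of -0.087 to 0.098). Whether they had more in common than a number cannot be told from this. Alternatives for list counts were added after the data had been seen. The ornithine list's 5 falls with DW71177 were 8 under the level filter, where 1 gene also rose, and 3 in a fit of 6 arrays, and its 2 falls with RVX208 were 4 under the filter and with trended variances. The import list's 3 falls with RVX208 were 1 in a fit of 6 arrays and 5 with trended variances. A modest signal, between the array medians and upper quartiles, limits SLC25A2.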

Other observations

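Of 5 noncoding SLC25A transcripts measured, SLC25A25-AS1, an antisense RNA of the ATP-Mg/phosphate carrier gene, was called with OTX015, where 25.7% of all genes were called in either direction, so 1 of 5 is no more than the share over all genes. It read 4.34, 4.24 and 4.57 there, against 4.76, 4.53 and 4.87 with DMSO (log2 -0.33 ± 0.11, limma adjusted p = 0.035). The groups overlapped, and the call was lost without OTX015 replicate 1 or 2 or DMSO replicate 1 or 3 (-0.31 to -0.26, limma adjusted p = 0.097 to 0.15). Its differences with DW71177, DW71374 and RVX208 were -0.23, -0.23 and -0.20 and were not called. SLC25A21-AS1, SLC25A48-AS1, SLC25A5-AS1 and SLC25A51P4 were not called with any compound against DMSO.

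Among other mitochondrial membrane transporters, 15 of 24 listed genes were measured, and 3 rose and 5 fell with OTX015, where 11.2% of all genes were called higher and 14.5% lower. With DW71177 the counts were also 3 and 5, where 9.95% of all genes were called higher and 9.88% lower. The sideroflexin genes SFXN4 and SFXN2 fell by 0.99 and 0.93 on the log2 scale with OTX015 (limma adjusted p = 4.4e-06 and 2.9e-06), while MCU, the calcium uniporter pore, rose by 0.59 and MPC1, a pyruvate carrier subunit, by 0.33 (limma adjusted p = 9.7e-06 and 0.0029). With RVX208, where 3.41% of all genes were called higher and 3.11% lower, 0 rose and 2 fell, SFXN2 and VDAC1, a count of 0 or 1 without DMSO replicate 1, 2 or 3 or RVX208 replicate 1 or 2.

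Several short lists had been drawn up as partners of carriers that were not analysed here, and their counts with OTX015 stand beside 11.2% of all genes called higher and 14.5% called lower. Of 8 measured one-carbon genes 2 rose and 3 fell, with MTHFD1L at -1.19 and MTFMT at 0.74. Among the falls was GCSH, which averaged 2.01 with OTX015 and 2.48 with DMSO, below the array lower quartiles of 2.58 to 2.62. Over all alternatives 2 to 3 of the one-carbon genes fell. Of 15 heme and iron-sulfur genes 3 rose and 5 fell, with UROD at -0.67 and ALAD at 0.55. Of 4 carnitine and fatty acid oxidation genes CPT2 and ETFDH rose by 0.40 and 0.31 and CPT1A fell by 0.62 on the log2 scale. Of 3 malate-aspartate and citrate genes ACLY and CS fell by 0.26 and 0.21 on the log2 scale and 0 rose. The ATP synthase list had 0 measured genes. Single arrays moved these small counts: the 5 heme and iron-sulfur falls were 3 without DMSO replicate 2, DMSO replicate 3 or OTX015 replicate 1, the 2 one-carbon rises were 1 without DMSO replicate 3 or OTX015 replicate 1, and the 2 malate-aspartate and citrate falls were 1 without DMSO replicate 2 or OTX015 replicate 2.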
